A study of Mus musculus with 60 samples.

Results

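The effect of the Wnt inhibitor XAV939 (XAV) on H3K27me3 in Tet1 knockout (KO) cells at day 5 of neural differentiation was followed in 4 CUT&RUN libraries, namely line KO1 and line KO15, each without XAV (day 5) and with XAV (day 5 + XAV). They were chosen by their labels out of 60 samples, of which 30 are H3K27me3 and 30 are IgG control libraries. Both lines are mouse embryonic stem cells of B6129S6F1 background carrying Tet1<tm1Koh>, so TET1 was lacking with and without XAV. Cells were grown in N2B27 medium with bFGF until day 3, and XAV was present at 5 µM from day 2 to day 5. The labels do not say whether cells without XAV received the vehicle. Wild-type (WT, lines WT70 and WT72) and catalytic mutant (MUT, lines CM59 and CM69) libraries of day 5 and day 5 + XAV, and KO libraries of earlier days, were used only for comparison. There was 1 library per line and condition, and nothing shows separate cultures of a line, so p-values measure the spread between these libraries. The Tet1 promoter had no peak in any of the 30 libraries, so H3K27me3 cannot check the knockout labels. The peaks come from cell populations, in which fewer cells with the mark and less mark per cell cannot be told apart.

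H3K27me3 is placed by Polycomb repressive complex 2, mostly around CpG-rich promoters of developmental genes that a cell keeps silent, and it recedes where such a gene is turned on. XAV939 blocks tankyrase, which stabilises Axin and so lowers β-catenin, the effector of canonical Wnt signalling. Wnt and Nodal signals drive embryonic cells into the primitive streak, the source of mesoderm and endoderm, whereas their absence favours anterior neural fate. TET1 oxidises methylated cytosine and also acts independently of this activity.

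Merging the peaks of all 30 libraries gave 3828 regions that at least 2 of them shared. Each region, and each promoter (1.5 kb to either side of a start site), counted as called in a library where a peak overlapped it by at least 1 bp. At least 1 of the 4 KO libraries had a peak in 2784 of the regions and at 2460 of the 3179 promoters that were called in at least 2 of the 30 libraries. Read depth is unknown from the peak files, so the number of peaks stands in its place.

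With XAV both KO lines had fewer peaks. KO1 went from 2122 to 1729 peaks and KO15 from 2738 to 2461, changes of -0.30 and -0.15 on the log2 scale. The peaks were wider, with medians of 5.52 kb and 5.87 kb in KO1 and of 4.71 kb and 5.64 kb in KO15. Covered bases therefore moved apart between the lines, from 14.5 to 13.5 Mb in KO1 and from 16.2 to 18.2 Mb in KO15. Called promoters went from 54.2% to 48.8% of 3179 in KO1 and from 67.6% to 66.4% in KO15. Both WT lines moved the other way in number, from 1270 to 1407 peaks in WT70 and from 1385 to 1717 in WT72. Of the MUT lines, CM59 went from 2847 to 704 peaks and CM69 from 1191 to 1924. An exact two-sided permutation test of the KO lines against the other 4 lines gave p = 1 for the change in peak number and p = 1 for that in called promoters. With 15 choices of 2 lines out of 6, this test cannot reach 0.05. It also pools WT with MUT lines that moved in opposite directions, so it does not compare KO with WT. With 2 pairs of lines no exact paired test can go below 0.5, so counts of calls are given without a test.

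**Figure D1:**
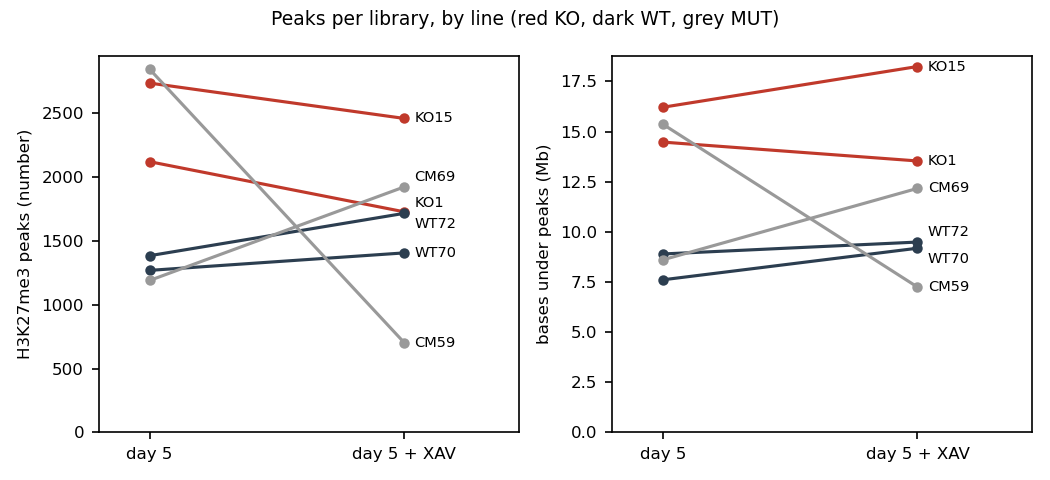
Number of H3K27me3 peaks (left, vertical axis) and bases under peaks in Mb (right, vertical axis) at day 5 and day 5 + XAV (horizontal axis), with 1 line of points per cell line and colour for genotype. Peak number goes down in KO1 and KO15 and up in WT70 and WT72, while covered bases go down in KO1 and up in KO15.

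Most regions called at day 5 were called again with XAV, 72.0% of them in KO1 and 81.6% in KO15, and at the deposited numbers of peaks more regions were lost than gained. Of the 3828 regions, 1363 (35.6%) were called in all 4 KO libraries. In both lines 249 regions were lost, that is called at day 5 and not with XAV, which is 6.5% of the regions. The reverse, gained in both lines, was seen at 117 regions (3.06%). KO15 alone accounted for many other patterns, with 179 regions called only in KO15 at day 5 and 245 only in KO15 with XAV. A further 272 regions were lost in KO1 and kept in KO15. Among promoters, 171 were lost (5.38% of 3179) and 87 were gained (2.74%). These counts moved with the number of peaks. With the 1729 strongest peaks taken from every library, 184 regions and 145 promoters were lost and 242 regions and 212 promoters were gained, which turns the balance. Of the promoters gained, 73 were gained in both analyses, which is 83.9% of the 87 and 34.4% of the 212. Of the promoters lost, 66 were shared, which is 38.6% of the 171 and 45.5% of the 145.

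Lost regions were narrow and low in signal. Their median width was 6.47 kb, against 8.16 kb for gained regions, 10.5 kb for regions called in all 4 libraries and 7.38 kb for all regions. Each region was placed by its strongest peak in the ranking of all peaks of a library by total signal. At day 5 the median lost region stood at the 21.9th percentile in KO1 and at the 33.6th in KO15. Gained regions with XAV stood at the 23.1st percentile in KO1 and at the 49.1st in KO15. Promoters lay in 71.1% of lost, 68.4% of gained and 89.0% of permanently called regions. Lost regions had a median GC content of 51.8% and 2.31 CpG per 100 bases, and gained regions had 48.0% and 2.02. The medians were 50.6% and 2.35 over all regions, and 50.5% and 2.36 over regions called in all 4 libraries. The X chromosome held 2 of the lost and 11 of the gained regions (9.40%), against 1.91% of all regions.

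Genes of the fixed lists with a lost or gained promoter numbered 31, of 512 listed genes. Of these, 15 were gained, among them genes of mesoderm and of Nodal and BMP signalling, and 16 were lost, among them neural progenitor and neuronal genes. The 6 with the widest peaks were Isl1, Foxc1, Bdnf, Sox3, Bmper and Sox2, and the start regions of the 5 found in the RefSeq table are shown to give the sequence that acquired or shed the mark. Each is 300 bases, from 250 before to 50 after the start, from RefSeq on GRCm38.p6 and written along the gene's strand, with every CG dinucleotide in capitals. Isl1 (chr13:116309639-116309938, minus strand), Foxc1 (chr13:31806396-31806695, plus strand) and Bmper (chr9:23222826-23223125, plus strand) gained the mark, and Sox2 (chr3:34649745-34650044, plus strand) and Bdnf (chr2:109674450-109674749, plus strand) lost it.
Isl1: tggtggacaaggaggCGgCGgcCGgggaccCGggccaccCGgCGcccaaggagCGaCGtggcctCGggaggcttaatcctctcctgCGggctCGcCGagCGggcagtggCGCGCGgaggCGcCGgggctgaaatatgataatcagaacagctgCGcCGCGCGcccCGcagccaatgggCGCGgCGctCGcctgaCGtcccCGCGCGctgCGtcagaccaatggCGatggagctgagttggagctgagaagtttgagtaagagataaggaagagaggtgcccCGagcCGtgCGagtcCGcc
Foxc1: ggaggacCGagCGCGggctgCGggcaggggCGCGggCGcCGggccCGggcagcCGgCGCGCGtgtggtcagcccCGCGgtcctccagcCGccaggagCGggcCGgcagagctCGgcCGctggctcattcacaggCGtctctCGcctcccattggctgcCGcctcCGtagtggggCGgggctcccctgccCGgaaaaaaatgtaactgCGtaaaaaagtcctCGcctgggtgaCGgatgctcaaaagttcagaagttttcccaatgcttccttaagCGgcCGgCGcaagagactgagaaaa
Bmper: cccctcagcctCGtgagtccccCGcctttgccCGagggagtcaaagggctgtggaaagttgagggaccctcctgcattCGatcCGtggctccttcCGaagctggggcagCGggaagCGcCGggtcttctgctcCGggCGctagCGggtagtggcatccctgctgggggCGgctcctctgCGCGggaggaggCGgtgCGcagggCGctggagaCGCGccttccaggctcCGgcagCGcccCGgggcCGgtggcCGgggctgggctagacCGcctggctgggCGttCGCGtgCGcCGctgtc
Sox2: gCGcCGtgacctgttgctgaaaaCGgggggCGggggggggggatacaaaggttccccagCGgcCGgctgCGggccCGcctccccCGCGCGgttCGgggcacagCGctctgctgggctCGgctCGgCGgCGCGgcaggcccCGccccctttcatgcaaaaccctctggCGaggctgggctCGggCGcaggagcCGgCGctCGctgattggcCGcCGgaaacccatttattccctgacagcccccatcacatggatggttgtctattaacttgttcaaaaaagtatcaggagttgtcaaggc
Bdnf: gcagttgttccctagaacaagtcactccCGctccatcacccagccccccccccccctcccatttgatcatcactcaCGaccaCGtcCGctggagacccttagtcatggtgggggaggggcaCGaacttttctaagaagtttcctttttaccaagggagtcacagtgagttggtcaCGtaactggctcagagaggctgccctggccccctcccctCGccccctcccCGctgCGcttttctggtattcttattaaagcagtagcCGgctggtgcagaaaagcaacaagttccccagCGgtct
They hold 37 CG dinucleotides at Isl1, 32 at Foxc1, 31 at Bmper, 27 at Sox2 and 11 at Bdnf. The median was 18 over the 71 promoter sequences found for gained genes, 16 over the 173 for lost genes and 7 over all 32851. The full set includes promoters without a peak, so it is not matched to genes that carried the mark. The TCF/LEF core motifs CTTTGAT and CTTTGAA, searched on both strands, were in none of the 5 sequences. They were in 8.45% of the gained, 4.05% of the lost and 8.65% of all promoter sequences of this length.

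The largest gain among the signalling lists was in the BMP, Nodal and TGF-β list. Its called promoters went from 10 to 19 of 33 genes in KO1 and from 14 to 23 in KO15, which is 27.3 percentage points in each line, while all promoters went down by 5.38 and 1.23 points. At an equal number of peaks the list went up by 27.3 and 33.3 points, and all promoters by 3.62 and 3.27. Gained in both lines were Nodal, Lefty1, Tdgf1, Nog and Bmper. Nodal, the ligand that drives streak formation, had no promoter peak in KO1 or KO15 at day 5 and peaks of 6.27 kb and 6.81 kb with XAV. Lefty1, a Nodal antagonist and target, had none at day 5 and 5.45 kb and 5.52 kb with XAV. Tdgf1 encodes Cripto, the Nodal co-receptor, and had none at day 5 and 3.23 kb and 3.4 kb with XAV. These 3 Nodal pathway genes are picked out here as gained in both lines, so their shared course follows from that choice. Of the 33 list promoters 5 were gained and 0 lost in both lines, 9 were called in all 4 libraries and 9 in none of them. Noggin, the BMP antagonist encoded by Nog, gained 4.16 kb and 10.4 kb, and Bmper, a modulator of BMP, gained 8.44 kb and 8.40 kb. WT cells had a Lefty1 peak in both lines with and without XAV, a Nodal peak in both lines only with XAV, and no Tdgf1 or Nog peak in either. In WT the list went from 13 to 12 promoters in WT70 and stayed at 14 in WT72.

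Streak, mesoderm and endoderm lists also had more called promoters with XAV in both KO lines. The primitive streak list went from 12 to 15 of 20 genes in KO1 and from 14 to 15 in KO15. In WT this list rose too, from 13 to 15 in WT70 and from 14 to 15 in WT72. The mesoderm list went from 22 to 24 and from 25 to 27 of 34, and the endoderm list from 8 to 12 and from 12 to 13 of 18. In WT70 and WT72 the mesoderm list stayed at 24 and 25. The endoderm list stayed at 9 in WT70 and went from 12 to 9 in WT72. Isl1, a LIM homeobox factor of heart progenitors and motor neurons, had no peak at day 5 and domains of 24.2 kb and 25.7 kb with XAV, with total signals of 399142 and 473164. Foxc1, a forkhead factor of somites and mesenchyme, had none at day 5 and 17.9 kb and 16.2 kb with XAV. These domains were over 15 kb wide in both lines, whereas the other gained list promoters had peaks of 3.23 to 10.4 kb. Prdm1, the repressor BLIMP1 of endoderm and germ cells, gained 5.65 kb and 4.75 kb. Mixl1, a streak homeobox gene, had no peak in KO1 at day 5 and 6.34 kb with XAV, and in KO15 it had 2.35 kb and 4.83 kb. The neural crest list went from 14 to 15 and from 15 to 17 of 21, with Grhl3, a surface ectoderm factor, gained. The pluripotency list went from 7 to 8 and from 9 to 10 of 18, with Klf5 gained.

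In the Wnt pathway, target and feedback promoters went from 8 to 11 of 24 in KO1 and from 9 to 12 in KO15. Lgr5, an R-spondin receptor and Wnt target, gained peaks of 5.89 kb and 5.51 kb. Dkk1, a secreted Wnt antagonist that is itself a target, gained 4.47 kb and 5.39 kb. Axin2, the standard feedback target, and Tcf7l1, the repressor at Wnt targets, had no peak in any of the 4 libraries, and neither had the ligand gene Wnt8a. The transcription factor gene Lef1 had a promoter peak only in KO15 with XAV, of 8.07 kb. Wnt ligands went from 16 to 15 and from 17 to 16 of 19, with Wnt5b, a ligand of non-canonical signalling, lost from peaks of 5.78 kb and 4.94 kb. This is 1 ligand promoter per line, and at a stricter peak threshold the ligand list changed by +10.5 points. Wnt receptors and secreted modulators went from 8 to 7 of 32 in KO1 and from 8 to 11 in KO15, and Rspo4, an R-spondin, was lost.

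Neural progenitor and neuronal genes made up the main losses on the lists. Neural progenitor promoters went from 10 to 6 of 18 in KO1 and from 12 to 10 in KO15, changes of -22.2 and -11.1 points that were the same at an equal number of peaks. Sox2, the SoxB1 factor of neural and pluripotent cells, had peaks of 10.9 kb in KO1 and 4.06 kb in KO15 at day 5 and none with XAV. Sox3, its X-linked relative, had 8.43 kb and 8.92 kb at day 5 and none with XAV. Nes, the intermediate filament of neural stem cells, had 4.47 kb and 4.58 kb and none with XAV. None of these 3 promoters was called in a WT library of day 5 or day 5 + XAV. Otx2, the anterior homeobox gene, had 1 peak, of 2.52 kb in KO15 at day 5.

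Neuronal function genes, which encode channels, receptors, synaptic and cytoskeletal proteins, went from 54 to 46 of 80 in KO1 and from 60 to 52 in KO15, or down by 10.0 points in each line, against 5.38 and 1.23 points down for all promoters. At an equal number of peaks the changes were -2.5 and -5 points, against 3.62 and 3.27 points up for all promoters. Lost in both lines were 7 of the 80, beside 5.38% of all promoters. Bdnf, the neurotrophin gene, had 9.85 kb and 7.89 kb at day 5, with total signals of 84045 and 97268. Tubb3, neuronal β-tubulin, had 4.39 kb and 6.20 kb, and Shank1, a postsynaptic scaffold, had 2.41 kb and 7.61 kb. Among the channel genes lost, Cacna1g (a T-type calcium channel) had 5.74 kb and 5.84 kb, Kcnh2 (the hERG potassium channel) 4.80 kb and 5.34 kb, and Chrna4 (a nicotinic receptor subunit) 5.46 kb and 2.29 kb. Against these, Gabra2, a GABA-A receptor subunit, and Slit1, an axon guidance ligand, were gained. Brsk2, a kinase of neuronal polarity, kept its peak in KO1 (8.98 and 6.72 kb) and lost it in KO15 (5.38 kb at day 5).

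Lists of regional and neuronal transcription factors were called at most of their promoters throughout. Forebrain and eye field promoters were at 26 of 30 in KO1 with and without XAV and went from 28 to 27 in KO15. Midbrain and hindbrain promoters went from 23 to 21 of 24 in KO1 and from 23 to 24 in KO15, and proneural ones from 27 to 28 and from 29 to 29 of 30. All 39 Hox promoters were called in all 4 libraries, and none of the 20 housekeeping and 12 germline promoters in any. The list of FGF, Hedgehog, Notch and retinoid genes was at 18 of 36 in KO1 with and without XAV and went from 20 to 23 in KO15, with the Notch ligand gene Jag2 lost. Trophoblast promoters stayed at 8 of 16 in each library, with Lrp2 lost and Tead4 gained. Fibroblast feeder markers went from 4 to 3 of 12 in each line, with Thy1 lost.

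**Figure D2:**
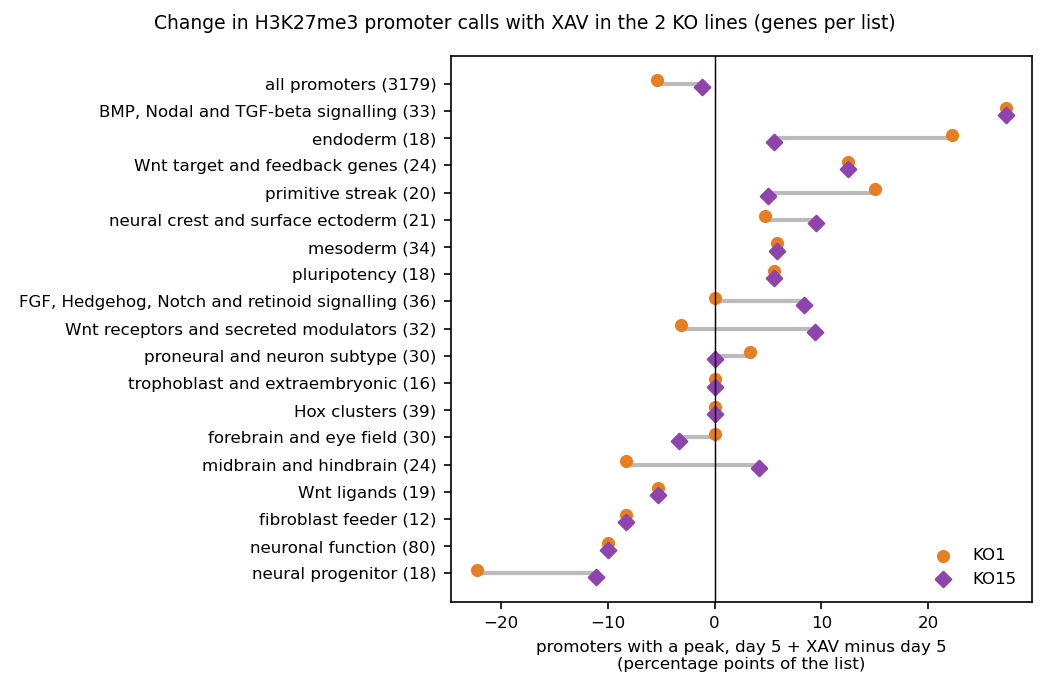
Change with XAV in the percent of a gene list's promoters that were called (horizontal axis, percentage points of the list, day 5 + XAV minus day 5) for each list (vertical axis, number of genes in parentheses), with 1 circle for KO1 and 1 diamond for KO15. The BMP, Nodal and TGF-beta list lies at 27.3 points in both lines, neuronal function at -10 in both and neural progenitor at -22.2 and -11.1, and all promoters lie at -5.38 and -1.23.

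The widest regions with a changed call lay mostly at other genes or at no promoter. Among the 10 widest lost regions, 4 held no promoter, and the widest (chr9:121219710-121240303) had peaks of 19.7 kb and 19.6 kb at day 5 and only 0.233 CpG per 100 bases. The others lay at Nes, Ildr2, Hhatl with Klhl40, Hcn4, Chrna4, and Otop2 with Ush1g. Hcn4, the pacemaker channel gene, had 7.64 kb and 5.90 kb of peaks there. Among the 10 widest gained regions, 4 held no promoter, and 1 of these 4 was an unplaced scaffold. Efnb1, the ephrin-B1 gene on the X chromosome, lay in the widest, of 45.6 kb, in which KO1 had 11.4 kb and KO15 7.71 kb of peaks. Atoh8, a basic helix-loop-helix factor, gained 11.3 kb and 10.8 kb. Twist1, a mesenchymal factor, lay in a gained region with 2.76 kb and 8.38 kb of peaks, although its promoter window was not called in both XAV libraries. Mapkapk2 and Slc35g2 were among the other genes with promoters in these regions.

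Of the 249 lost regions, 95.2% were called in neither WT line at day 5, and 92.4% in neither with XAV, against 67.6% and 60.0% of all 3828 regions. In KO cells before day 5 they were called at 35.3% (KO15) and 54.6% (KO25) at day 0, where all regions were at 43.7% and 61.4%. At day 2 they were called at 11.2% and 28.9%, against 33.0% and 51.6% of all regions, and at day 3 at 26.9% (KO1) and 19.3% (KO15), against 43.5% and 38.0%. Gained regions had been called at day 2 at 35.0% and 56.4% in KO and at 65.8% and 55.6% in WT, where all regions were at 33.0% and 51.6% in KO and at 54.7% and 46.2% in WT. With XAV they were called at 32.5% in WT70 and 43.6% in WT72, against 7.69% and 12% at day 5, while all regions were at 32.7% and 38.5% with XAV and at 27.5% and 31.1% at day 5. Of the 117 gained regions, 27 (23.1%) were gained in both WT lines too, against 163 of all 3828 regions (4.26%). None of the 249 was lost in both WT lines, against 15 of all 3828 regions (0.39%). Only 8 of the 249 were called in both WT lines at day 5 and could be lost there. This count therefore cannot show whether the loss was particular to KO. In the MUT lines 8 of the lost regions (3.21%) were lost in both lines, against 36 of all 3828 regions (0.94%). Of the gained regions 3 (2.56%) were gained in both MUT lines, against 8 of all regions (0.21%). In that genotype the CM59 libraries held 64.3% of the lost regions at day 5 and 0% with XAV, and the CM69 libraries 4.42% and 2.01%. All regions were at 65.1% and 17.4% in CM59 and at 27.4% and 46.4% in CM69.

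**Figure D3:**
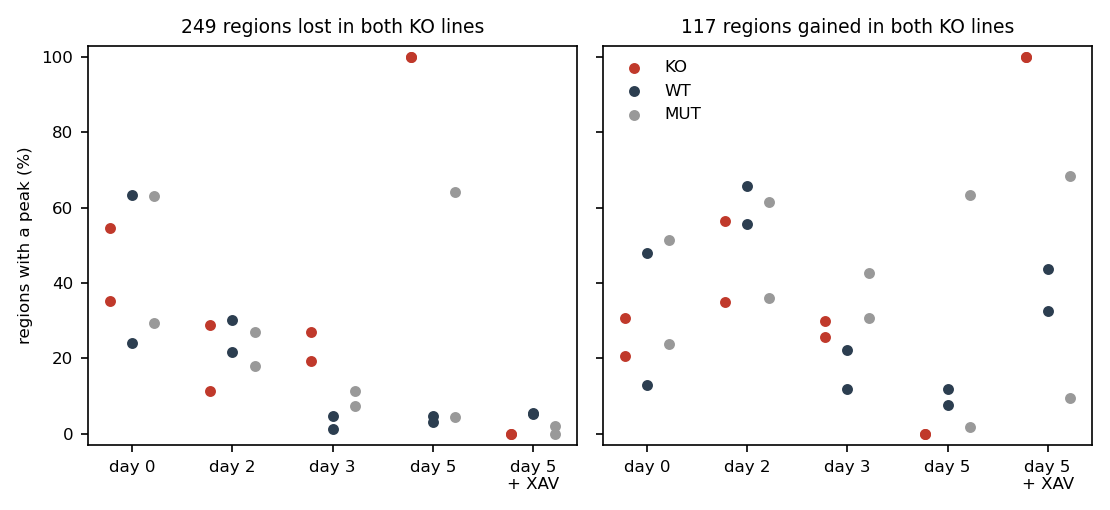
Percent of the 249 lost (left) and 117 gained (right) regions with a peak (vertical axis) at each time point (horizontal axis) in the 30 H3K27me3 libraries, drawn as 1 point per library and colour for genotype. By construction the KO points are at 100% and 0% at day 5 and day 5 + XAV. WT points lie under 6% for lost regions from day 3 on and at 32.5% and 43.6% for gained regions with XAV.

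Marks that both KO lines but no WT line carried at day 5, here called KO-only, were kept in part. MUT libraries played no part in this choice. Some of these marks were in MUT too, as at Kif17 and Brsk2 in both MUT lines at day 5. Of 754 regions that both KO lines but no WT line had at day 5, 270 (35.8%) were called in both KO lines with XAV and 237 (31.4%) in neither. KO15 kept 238 of the others and KO1 kept 9. Of 949 regions that all 4 KO and WT libraries had at day 5, 925 (97.5%) were called in both KO lines with XAV. At an equal number of 1270 peaks per library the percentages were 27.3% of 161 and 92.9% of 786. The lines weigh unequally here, since taking KO15 alone gave 64.5% of 1191 regions and KO1 alone 36.7% of 772. Both KO lines but no WT line had 126 of the 754 regions again with XAV. Among neuronal function genes with such a KO-only promoter, 8 of 18 were called in both KO lines with XAV, among them Nrxn2, Kcnd3, Grin3a, Sh2d5, Kif17 and Cacna1a. Bdnf, Chrna4, Kcnh2, Shank1 and Tubb3 were among those called in neither, and Drd1, Syt7, Slc17a7 and Brsk2 in 1 line. Over all KO-only promoters 251 of 622 were called in both and 162 in neither. With XAV, Kif17 and Sh2d5 were also called in both WT lines, so their marks were no longer KO-only.

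The regions called in all 4 KO libraries allow a test of signal. The total signal is the sum of fragment coverage under the peaks of a region, here as a log2 value centred on each library's median over the 1363 regions. It was compared with limma, with the line as a block, and p-values were adjusted over all 1363 regions. The 4 libraries leave 1 residual degree of freedom, so the spread rests mostly on a prior of 22.7 degrees of freedom taken from all regions. The signal was higher with XAV at 341 regions (25% of those tested) and lower at 242 (17.8%) at an adjusted p of 0.05. Both lines moved up together at 631 regions and down together at 463. The change exceeded 1 on the log2 scale in both lines at 38 regions and was below -1 in both at 24. With the peak height in place of the total, 127 were higher and 162 lower, with the total per covered base 131 and 146, and with quantile normalisation 134 and 162. The balance of directions thus rested on the measure. Width moved with the total signal. Among the higher regions 279 of 341 were covered more widely in both lines, with medians of 6.12 kb and 6.46 kb at day 5 and 8.45 kb and 9.58 kb with XAV. Among the lower regions 143 of 242 were narrower in both.

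The 10 largest rises included T, Sp5, Eomes, Foxa2 and Lhx1, all on the primitive streak or endoderm list. T (Brachyury), the streak and notochord T-box gene (chr17:8423875-8443161), had promoter peaks of 4.64 kb in KO1 and 4.85 kb in KO15 at day 5 and of 13.4 kb and 12.8 kb with XAV. Its total signal was 51813 and 77918 at day 5 and 307544 and 316808 with XAV. Both XAV libraries lay far above both day 5 libraries. The centred log2 change was 2.41 in KO1 and 2.04 in KO15 (SE of their mean 0.17, limma adjusted p = 5.15e-10).

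Sp5, a transcription factor that is a direct Wnt target, had total signals of 47269 and 64595 at day 5 and of 230774 and 280890 with XAV. Its log2 change was 2.13 in each line (SE 0.16, limma adjusted p = 5.91e-10). Eomes, the T-box factor of streak and endoderm, had promoter peaks of 3.66 kb and 5.76 kb at day 5 and of 15.2 kb and 14.5 kb with XAV. The change at its region was 2.26 in KO1 and 1.75 in KO15, mean 2.00 (SE 0.17, limma adjusted p = 4.58e-09). Per covered base the change at Eomes was -0.04. Foxa2, the forkhead factor of endoderm and axial mesoderm, rose by 2.52 and 1.37, mean 1.94 (SE 0.20, limma adjusted p = 7.92e-08), as promoter peaks went from 4.89 kb and 15.6 kb to 22.9 kb and 27 kb. KO1 and KO15 thus differed at day 5 and were close with XAV. Wnt3, the ligand needed to form the streak, rose by 1.67 (SE 0.17, limma adjusted p = 3.90e-08), with peaks of 5.28 kb and 6.89 kb at day 5 and 10.7 kb and 11.4 kb with XAV.

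The other large rises included Lhx1, a LIM homeobox factor of the head organiser, in a region shared with Aatf. It rose by 4.15 in KO1 and by 1.78 in KO15 (mean 2.96, SE 0.29, limma adjusted p = 3.90e-08). Col13a1, a transmembrane collagen gene, rose by 2.28, Tfap2b, a neural crest AP-2 factor, by 2.25, Fzd10, a Wnt receptor gene, by 1.98, and the shared region of Nab2 and Nemp1 by 1.92. A cluster of 12 genes around the interferon gene Ifnz on chromosome 4 rose by 2.00, with near-identical copies among which fragments may be split. By peak height the change at Tfap2b was -0.08, and its covered length went from 9.11 and 9.78 kb to 35.1 and 39.5 kb. Gata6 and Gata4, zinc finger factors of endoderm and heart, rose by 1.24 and 1.01. The change at Gata4 was -0.08 by peak height.

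Of the 12 primitive streak list regions called in all 4 libraries, 11 were higher and none lower, with a median log2 change of 1.10 against 0.08 over all 1363 regions. Of all 1363 regions 25% were higher and 17.8% lower, and each list count below is to be read beside these shares. Those higher were Cdx1, Cdx2, Cdx4, Eomes, Evx1, Gsc, Lhx1, Nkx1-2, Sp5, T and Wnt3. Mesp1, the cardiac mesoderm factor, had a change of 0.36 that did not pass (SE 0.16, limma adjusted p = 0.0795). Of 21 mesoderm regions 16 were higher and none lower, with a median of 0.62, and Hand1, a factor of heart and extraembryonic mesoderm, had 0.51. Of 9 endoderm regions 5 were higher and none lower, among them those of Foxa1, Foxa2, Shh and Sox17. Proneural and neuron subtype regions had 12 of 28 higher and none lower, neural crest regions 7 of 13, Hox clusters 3 of 5, pluripotency 4 of 7, trophoblast 4 of 7, neural progenitor 4 of 8 and fibroblast feeder 3 of 4, with none lower in any of these. Wnt ligand regions had 6 of 14 higher and 1 lower (Wnt9a), and Wnt target regions 7 of 9 higher and 1 lower (Nkd2). Wnt receptor regions had 1 of 5 higher and 1 lower, the BMP and Nodal list 1 of 9 higher and none lower, and the FGF, Hedgehog, Notch and retinoid list 4 of 14 higher and 2 lower. In the lists with no lower region, limma gave none at an unadjusted p under 0.05 either. By peak height the calls at Cdx1, Cdx2, Hand1 and Sox17 ended. Per covered base the region of Cdx1 and Pdgfrb had a change of -0.18, in place of 0.46 in total signal.

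**Figure D4:**
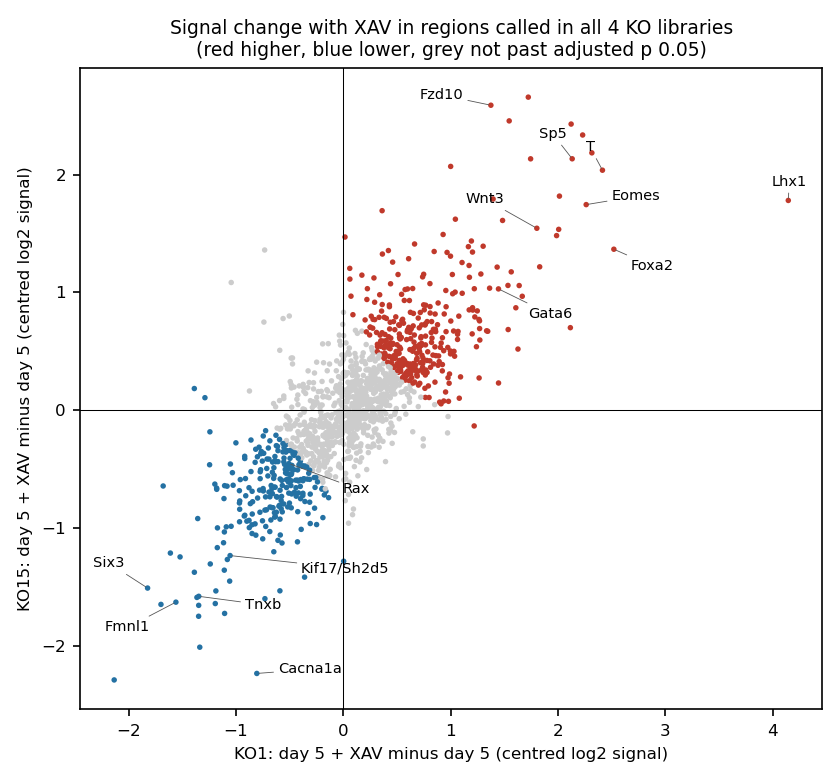
Change in centred log2 total signal with XAV in KO1 (horizontal axis) and KO15 (vertical axis) for each of the 1363 regions called in all 4 KO libraries, coloured by the limma result at an adjusted p of 0.05. T, Sp5, Eomes and Wnt3 lie above 1.5 in both lines, Six3 below -1.5 in both, and Lhx1 at 4.15 and 1.78.

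The 10 largest falls included the eye field gene Six3 and, of the neuronal function list, Grm4 and Cacna1a. Six3, a homeobox gene of the anterior forebrain and eye (chr17:85606165-85642118), had total signals of 316023 in KO1 and 472409 in KO15 at day 5 and of 99421 and 164050 with XAV. Both XAV values lay below both day 5 values. The log2 change was -1.82 in KO1 and -1.51 in KO15, mean -1.67 (SE 0.17, limma adjusted p = 4.43e-08), and peak width went from 22.0 and 21.4 kb to 11.2 and 17.3 kb. Rax, the eye field homeobox gene, fell by 0.48 (SE 0.16, limma adjusted p = 0.0223), a call that ended by peak height and per covered base. Emx2, Fezf2 and a region of Nr2f1 were also lower, while Dlx1 with Dlx2, Gsx2, Nkx2-2, Tbr1 and Vax1 were among those higher. Of the 26 forebrain regions 7 were higher and 5 lower, beside 25% and 17.8% of all 1363 regions. Pax6 had a change of -0.37 (limma adjusted p = 0.0747), Lhx5 of -0.35 (limma adjusted p = 0.0954), Sox1 of -0.33 (limma adjusted p = 0.106) and Lhx2 of 0.02 (limma adjusted p = 0.936), none of which passed. The direction at Pax6, Lhx5, Sox1 and Lhx2 turned under other measures of signal.

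Midbrain and hindbrain regions had 8 of 21 higher and 3 lower, beside 25% higher and 17.8% lower over all 1363 regions. Lmx1b, Pax2 and Pax5, which act at the midbrain-hindbrain boundary, were lower. En1 had a change of 0.45 (limma adjusted p = 0.0320), En2 of 0.44 (limma adjusted p = 0.0345) and Gbx2 of 0.50 (limma adjusted p = 0.0186). These 3 calls ended by peak height, per covered base and with quantile normalisation, and in the last of these the changes were 0.03, 0.07 and 0.17. Wnt1, expressed at the same boundary, had -0.11 (limma adjusted p = 0.629).

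Among neuronal function regions 12 of 42 were higher and 12 lower, with a median change of 0.04, beside 25% higher and 17.8% lower over all regions. Grm4, a metabotropic glutamate receptor gene, fell by 1.67 (SE 0.16, limma adjusted p = 3.74e-08), with covered lengths of 8.59 and 12 kb at day 5 and 4.57 and 5.56 kb with XAV. Cacna1a, the pore-forming subunit of P/Q-type calcium channels, fell by 0.81 in KO1 and by 2.24 in KO15 (mean -1.52, SE 0.22, limma adjusted p = 9.06e-06). Kif17, a dendritic kinesin, and Sh2d5, its neighbour in the region, fell by 1.15 (SE 0.16, limma adjusted p = 8.62e-06). Grin1, Hcn2, Kcna2, Nrxn2, Slc32a1, Slc6a3, Syt6 and Unc5a were among the others lower. Gad1, Gad2, Htr1a, Kcna1, Kcnc1, Kcnk9, Slit2, Robo3 and Slc6a5 were among those higher. The remaining largest falls were at Exoc3l4 with Lbhd2 (-1.68), Fmnl1 (-1.60), Gpr153 with the Notch effector Hes3 (-1.55), Gm1673 with Nat8l (-1.50), Tnxb (-1.46), Btbd17 with Kif19a (-1.42) and Lmo1 (-1.42). Per covered base the calls at Cacna1a, Exoc3l4, Gpr153, Btbd17 and Lmo1 ended.

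Whether XAV acted differently in KO and WT was tested in a fit of both genotypes, added after the data were seen, over 862 regions called in all 8 libraries. The XAV change was higher in KO than in WT at 70 regions (8.12%) and lower at 41 (4.76%). The largest such differences included the germ layer regulators. T had centred log2 levels of -0.92 (KO1) and -0.76 (KO15) at day 5 and of 1.38 and 1.21 with XAV, whereas WT levels were 1.15 (WT70) and 1.29 (WT72) at day 5 and 1.36 and 1.31 with XAV. The KO levels lay below both WT levels at day 5 and beside them with XAV. The difference of the XAV changes at T was 2.02 (SE 0.19, limma adjusted p = 0.00452).

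The same course was seen at other genes of this kind. Eomes had a KO level minus WT level of -1.43 at day 5 and of -0.05 with XAV, and a difference of the changes of 1.39 (SE 0.22, limma adjusted p = 0.0209). Foxa2 went from -1.95 to -0.04 relative to WT, a difference of 1.91 (SE 0.35, limma adjusted p = 0.0221). Gata4 went from -1.10 to 0.19 and Gata6 from -1.05 to 0.21, with differences of 1.29 (limma adjusted p = 0.0183) and 1.27 (limma adjusted p = 0.0201). Lhx1 had a difference of 2.94 (SE 0.67, limma adjusted p = 0.0405) and Sox17, the endoderm factor, of 1.06 (limma adjusted p = 0.0342). Over all 862 regions 8.12% changed more in KO than in WT and 4.76% less. In the primitive streak list 5 of 11 regions, in the mesoderm list 7 of 21, and in the endoderm list 2 of 9 changed more in KO than in WT, and none changed less by limma's adjusted p. At an unadjusted p under 0.05, 0, 1 and 0 regions of these lists changed less.

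At other genes WT cells had changes too. Sp5, a Wnt target, had levels of -1.05 and -1.03 in KO and of -0.86 and -0.89 in WT at day 5, and of 0.96 and 1.03 in KO and of 0.90 and 0.61 in WT with XAV. The difference of the changes was 0.41 (SE 0.17, limma adjusted p = 0.153). Wnt3 had a difference of 0.62 (SE 0.17, limma adjusted p = 0.0588). Six3 fell in both genotypes, by 1.76 in KO and by 2.11 in WT, and the difference of 0.35 (SE 0.23) did not pass (limma adjusted p = 0.331). Rax changed by -0.57 in KO and by -1.45 in WT, a difference of 0.88 (SE 0.16, limma adjusted p = 0.0221). Lhx2 had 0.78 (limma adjusted p = 0.0517) and Pax6 0.36 (limma adjusted p = 0.343). In the forebrain list 6 of 22 regions had a change above that in WT and none below, or 13 and 1 at an unadjusted p under 0.05 in limma. Over all 862 regions 70 were above and 41 below, or 177 and 115 at the unadjusted threshold.

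**Figure D5:**
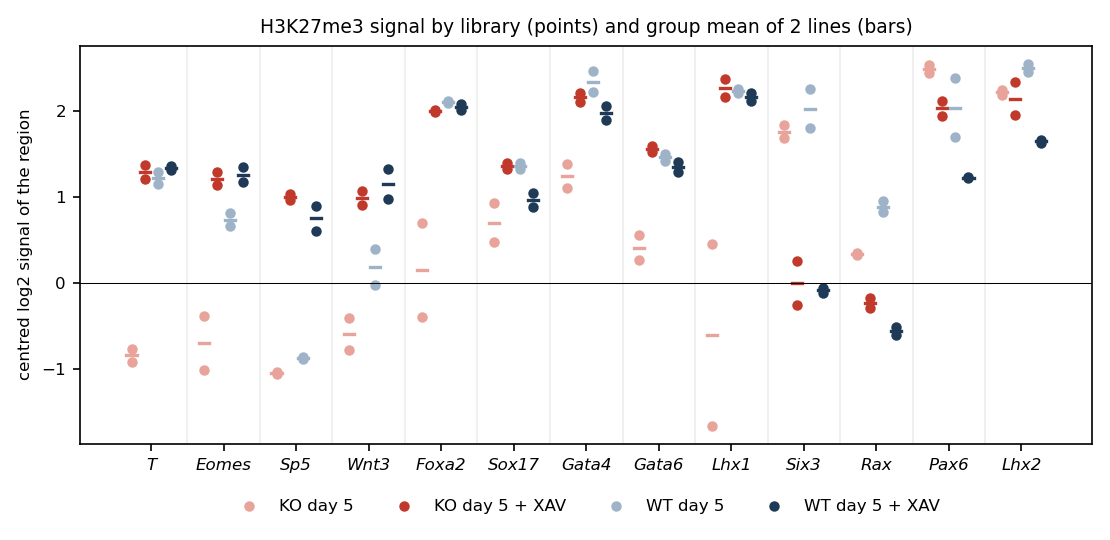
Centred log2 total signal of the region (vertical axis) at named genes (horizontal axis) in KO and WT libraries at day 5 and day 5 + XAV, with points for the lines and bars for the mean of 2 lines. KO points at day 5 lie below the WT points at T, Eomes, Foxa2 and Gata6 and beside or above them with XAV, while Six3 goes down in both genotypes.

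The regions that the study selected in its comparison of KO with WT were read for their calls here. These lists were chosen on KO and WT libraries of this series, so that their direction is not independent evidence. Of 1443 regions named as gaining H3K27me3 in KO over time (gain-gain), 187 (13.0%) were lost and 12 gained with XAV in both KO lines. Of 792 regions lower in KO than in WT at day 0, with recovery by day 2 (loss-loss), 3 were lost and 71 (8.96%) gained. Of 748 regions lower in KO than in WT at day 0 and higher by day 5 (loss-gain), 49 (6.55%) were lost and 4 (0.53%) gained. Of 1897 regions selected as gained in KO with XAV, 72 (3.80%) were lost and 79 (4.16%) gained. Over all 3828 merged regions 6.5% were lost and 3.06% gained, so the share lost of the loss-gain list was near that of all regions.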

How the data were processed

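H3K27me3 CUT&RUN reads were trimmed by the authors with Trim Galore, aligned with Bowtie to GRCm38.p6 (mm10) and deduplicated with Picard. Peaks were called per library with SEACR in stringent mode against IgG, version not given in the sources used here. The deposited peak values are a whole-number signal made by the authors from fragment coverage, as total and height, unscaled for depth. The deposited lists of the authors' DiffBind 3.0.15 comparison hold positions only.

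Peaks were merged into 4512 regions, of which 3828 with peaks in at least 2 of 30 libraries were kept. Promoters came from start sites of 21866 protein-coding genes in GENCODE. Regions on unplaced scaffolds were kept without sequence values. Total signal was compared with limma 3.58.1 in R 4.3.3 (two-sided, Benjamini-Hochberg, threshold 0.05). Other steps used Python 3.11.15 and pysam 0.24.0, and figures Matplotlib 3.10.9. The fit was tested on simulated data.

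KO1 and KO15 were each sampled with and without XAV, so the lines pair the libraries, and over 1363 regions the deviations of a line without and with XAV had a correlation of 0.145. Named genes were list genes lost or gained in both lines, the 10 largest rises and 10 largest falls in signal at promoters, the 10 widest lost and gained regions, and a preset list. The members and all 20 gene lists were chosen with earlier results of these data known. Alternatives covered the number of peaks, thresholds, overlap, merging, promoter window, signal measure, scaling, block and each line left out. KO25 samples were taken by title, cell line and genotype, although their free-text description names WT70 at days 0 and 2. Some genes named by this rule are not reported here. IgG libraries have no values used here.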

Additional observations from a re-analysis of the deposited data

Results flagged for a closer look

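4 results differed in direction between KO and WT lines, with both KO lines moving one way and both WT lines the other. These differences were not tested, since 2 lines against 2 cannot reach an exact p of 0.05. The log2 change in peak number with XAV was -0.30 and -0.15 in KO1 and KO15 and 0.15 and 0.31 in WT70 and WT72, a difference of the means of -0.45. The percent of promoters called changed by -5.38 and -1.23 points in KO and by 5.10 and 6.86 points in WT, a difference of -9.28 points. Promoters of neuronal function genes changed by -10 points in both KO lines and by 2.50 and 10.0 points in WT, a difference of -16.3 points. Wnt ligand promoters changed by -5.26 points in both KO lines and by 5.26 and 10.5 points in WT, a difference of -13.2 points, and 1 promoter of this list is worth 5.26 points. At an equal number of peaks the neuronal function list still went down by 2.50 and 5.00 points in the KO lines, while all promoters went up. The KO libraries without XAV also held more peaks than the WT libraries, and the part of peak number in these differences was not tested.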

How the results depend on the processing

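With the 1729 strongest peaks of every library, gained regions numbered 242, gained promoters 212, and the change in called promoters turned to +3.44 points. Covered bases in place of peak number gave +0.0367 on the log2 scale. A stricter peak threshold turned the change of Wnt ligands to +10.5 points. Of 100 values of gene list shares under the alternatives, 77 moved by less than the spread between lines, 22 by more and 1 turned. Leaving out a line gave 440 to 536 regions lost, 267 to 374 gained, 329 to 413 promoters lost, 242 to 290 gained, and a persistence of 36.7% to 64.5% of KO-only regions, because 1 line must then show a change in place of both. The ranges were -0.30 to -0.15 for peak number and -5.38 to -1.23 points for called promoters.

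Without the replicate block for the line, limma called 259 regions higher and 179 lower. Peak height gave 127 higher, signal per covered base 131 higher and 146 lower, and quantile normalisation 134 higher. A fit of 12 libraries of all genotypes called 76 higher and 34 lower of the 568 regions called in all of them. A fit of 8 KO and WT libraries, added after seeing the data, called 158 higher and 117 lower of 862. Without 1 KO line, in the fit of all genotypes where the lone line is assumed to vary like the others, 19 to 29 were higher and 3 to 3 lower. Of 250 values at named regions, 187 kept direction and side of the threshold, 41 lost significance, 7 gained it and 15 turned. By peak height these were Tfap2b (-0.0783), Gata4 (-0.0830), Lhx5 (0.10), Pax6 (0.13) and Sox1 (0.14). Per covered base they were Eomes (-0.0360), the region of Cdx1 and Pdgfrb (-0.18), Lhx2 (-0.0525), Lhx5 (0.0696), Sox1 (0.53) and the region of Ddn and Wnt1 (0.0495). Lhx2 also turned with quantile normalisation (-0.36), without the regions up to the 0.25 quantile of signal (-0.0048), with 12 libraries (-0.18) and with 8 libraries (-0.0709), and, beyond the 250 values, without KO1 (-0.34) and without KO15 (-0.0344). Where no construction is named, the cause was not tested. The unknown read depth limits every count of calls, since a region under the peak threshold cannot be told from one without the mark.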
